A study of Lytechinus variegatus with 18 samples.

Results

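Embryos of the sea urchin Lytechinus variegatus that had received ethanol at fertilization were compared with control embryos at 15 hours post fertilization (hpf), as whole-embryo RNA. The comparison uses 6 of the 18 libraries of the series, 3 labelled ethanol and 3 labelled control, chosen by treatment and time in the deposited sample sheet and paired by its replicate letter. All embryos were wild type, each sample held the total RNA of about 150 embryos, and both groups came from the whole embryo. The other 12 libraries were made in the same way at 18 and 21 hpf. The labels give neither the ethanol dose nor what the control embryos received, and they do not name the parents or spawning of a replicate. They call the replicates biological. The p-values of the main fit are set against the spread that remains between the 18 samples after differences between replicate numbers are removed.

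At this age a sea urchin embryo passes from late blastula to gastrula. Skeletogenic mesenchyme cells enter the blastocoel and are positioned by signals from the ectoderm, the vegetal plate starts to form the gut, and Wnt signalling from the vegetal side confines the anterior neuroectoderm, the later apical organ, to the animal pole. Ethanol is oxidized to acetaldehyde and acetate by alcohol and aldehyde dehydrogenases, and in vertebrates exposure early in development disturbs the skeleton, the face and the nervous system. Gene names below beginning with Sp- come from the closest gene of Strongylocentrotus purpuratus, another sea urchin, so the role given with a name is known from that species or, where said, from vertebrates.

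The 6 libraries held 7133636 to 7835193 counts. Each ethanol library had a count for more gene models than the control library of the same number, 23974 against 22741, 22465 against 21041 and 24253 against 22630. Markers of the skeletogenic mesenchyme, gut, pigment cells, anterior neuroectoderm, oral and aboral ectoderm and ciliary band were detected in all 6 libraries, and the only marker model without a count in any of them was 1 copy of Tbx2/3. Summed over its markers, the anterior neuroectoderm stood at 695 to 732 CPM in control and 329 to 508 CPM in ethanol libraries, and the ciliary band at 98.8 to 103 and 44.7 to 65.2 CPM, whereas the ranges of the other 5 territories overlapped between groups. The anterior sum came mostly from FoxQ2 and Nkx2-1. Both models of Six3, its other marker, were higher in ethanol, with means of 18.85 against 14.2 and 14.95 against 10.9 CPM in control. The ciliary band sum held 2 models of a single gene, Onecut. Among the territories with overlapping sums, the pigment cell sum came mostly from Pks1 and the skeletogenic sum mostly from Msp130. Single markers in these territories had groups that did not overlap, as had 14.2% of all tested models. Alx1, Gcm, both models of GataC, 1 model of Tbx2/3 and 1 of Chordin were higher in ethanol, and Hox7 was lower. Of these only Hox7 passed the test in all 18 libraries described below. CPM are read counts relative to the scaled size of the library. The part of these territory markers in the results below was not tested.

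One pair outside this comparison bears on it, because the spread of each gene was estimated from all 18 libraries. In the replicate 3 pair of 21 hpf, the library labelled control and the library labelled ethanol differed in the direction opposite to that of the other 8 same-numbered pairs, both in the median ratio of the genes called here and in the summed level of the Z313 family, described below. Counts of called genes are therefore given with that pair and without it. The fold changes at 15 hpf come from the 6 libraries of that time and barely depended on the pair.

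Of 18674 gene models tested, 89 passed the edgeR quasi-likelihood test of ethanol against control with the replicate number as a block (Benjamini-Hochberg adjusted p under 0.05), which is 0.477% of those tested. Ethanol embryos had 67 of them lower (0.359%) and 22 higher (0.118%). These are the shares of all models to set beside the list members called in all 18 libraries below. Without the 21 hpf replicate 3 pair the same test called 2943 genes, 15.4% of 19101, of which 1806 (9.46%) were lower and 1137 (5.95%) higher, and all 89 were among them. With no replicate block 11 genes passed, all lower (0.0589%), and DESeq2 with the block called 1079 (5.78%), 366 higher (1.96%) and 713 lower (3.82%).

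The split between directions depended on the scaling. With libraries scaled by total counts alone, 62 genes were higher and 64 lower, 78 of the 89 among them, and the median log2 fold change of all models was 0.31 in place of 0.04. Leaving out replicate 1 left 0 genes called (2791 with an unadjusted p under 0.05), leaving out replicate 2 left 20 and leaving out replicate 3 gave 334.

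Log2 fold changes of the 89 ran from -3.72 to 2.87, with a median of -1.93 among the lower and 1.71 among the higher genes, against 0.04 over all tested models. At least a 2-fold difference was seen in 64 of the lower and 20 of the higher genes, and at least a 4-fold one in 30 and 5. In 81 of the 89, the 3 ethanol libraries all lay on one side of the 3 control libraries, which was so for 14.2% of all tested models. The annotation named 79 of the 89, of which 16 were called hypothetical. Of the named ones, 31 shared the name with another gene model, so that reads may be divided between copies. Since whole embryos were sequenced, fewer cells of a type and less RNA per cell cannot be told apart in any of these differences.

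**Figure D1:**
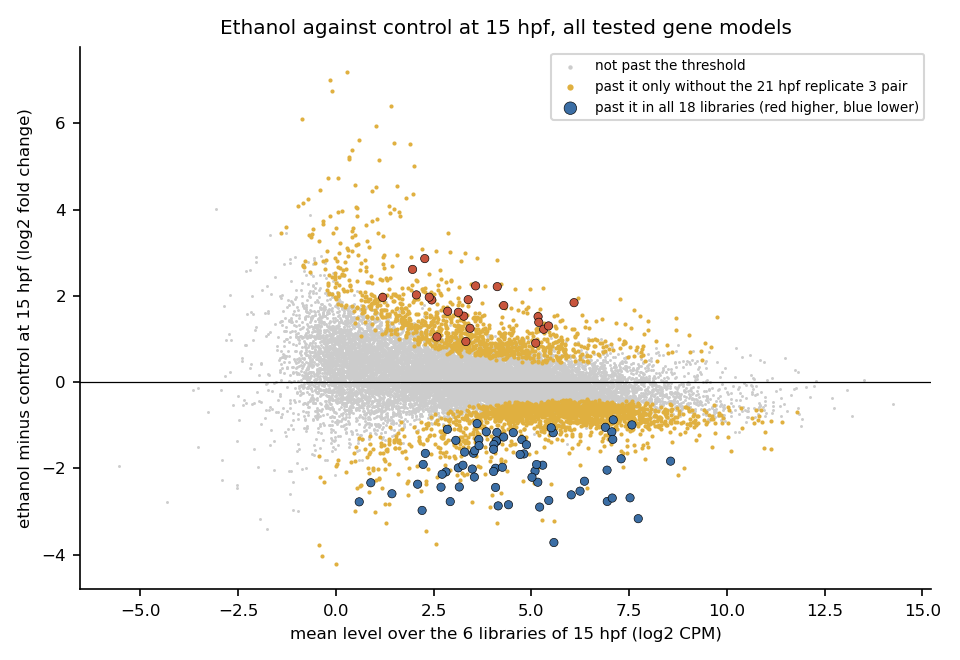
Each point is 1 gene model, with its mean level over the 6 libraries of 15 hpf in log2 CPM on the x axis and its log2 fold change, ethanol minus control, on the y axis; large points are the 67 lower (blue) and 22 higher (red) genes called in all 18 libraries, yellow points those called only without the 21 hpf replicate 3 pair. The lower genes reach higher levels than the higher genes, and a group of points with log2 fold changes of about 4 and more lies at low mean levels.

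Among the called transcription factors, the deadringer and NK class genes below had the largest decreases. Sp-Dr_1 (L_var_11305, chr5:43631572-43651157, minus strand) encodes deadringer, an ARID-domain factor used in the skeletogenic mesenchyme and then in the oral ectoderm. Its level was 212, 538 and 395 CPM in control replicates 1, 2 and 3 and 21.6, 76.2 and 35.2 CPM in the ethanol replicates of the same numbers. The log2 fold change was -3.17 (SE 0.40, adjusted p 0.00153 in edgeR), and the highest ethanol library lay far below the lowest control library. The gene model next to it, 4155 bases away and on the opposite strand, is the ion channel gene Sp-Trpm3L (L_var_11304), which also fell, from 163, 309 and 256 to 44.7, 103 and 67.5 CPM.

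Sp-Nkx3-2 (L_var_19971, chr12:21755266-21758255, minus strand), a homeobox gene of the NK class, had 61.3, 70.0 and 64.3 CPM in control and 5.11, 14.3 and 7.48 CPM in ethanol libraries. Here the control replicates lay close together, and the log2 fold change was -2.90 (SE 0.35, adjusted p 0.00143 in edgeR). Sp-Hox7 (L_var_06457, chr3:28369313-28382822, minus strand), a Hox gene of the aboral ectoderm, had 128, 252 and 206 CPM in control and 22.4, 80.8 and 45.5 CPM in ethanol libraries (log2 fold change -2.04, SE 0.33, adjusted p 0.0138 in edgeR). The forkhead gene Sp-FoxY (L_var_09987, chr5:2266773-2274184, minus strand) stood at 87.6, 212 and 110 CPM in control and 17.01, 40.3 and 25.2 CPM in ethanol libraries (-2.30, SE 0.29, adjusted p 0.00153 in edgeR). For all 3 genes replicate 2 was the highest library in both groups, and the groups did not overlap.

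Of 24 tested regulators of the oral and aboral ectoderm, the 3 that passed were Sp-Dr_1, Sp-Nkx3-2 and Sp-Hox7, all lower, and 21 did not pass. Over all models 0.359% passed as lower. The median log2 fold change of the list was -0.10. In the fit without the 21 hpf replicate 3 pair 7 were lower (9.46% of all models were) and 0 higher. The added ones were Sp-Gsc, the oral ectoderm repressor goosecoid, which averaged 108 CPM in control embryos and 60.5 CPM in ethanol ones, Sp-FoxG, with 145 and 89.0 CPM, and 2 models of the ciliary band gene Sp-Onecut, with 87.5 and 49.6 CPM and 13.6 and 6.96 CPM. The 2 best expressed members did not pass in either fit. They were the homeobox genes Sp-Nkx2-2 (398, 372 and 578 CPM in control, 332, 472 and 459 CPM in ethanol libraries) and Sp-Not (312, 284 and 348 against 202, 433 and 236 CPM), whose groups overlapped.

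Regulators of the anterior neuroectoderm were lower as a list. Like the other lists, it was written with earlier results of these data known, so its shares are no independent test. Of 21 tested members 4 passed, all lower, against 0.359% of all models. The fit without the 21 hpf replicate 3 pair had 12 lower and 0 higher, against 9.46% and 5.95% of all models. The median log2 fold change was -0.85, and it was -1.07, -0.58 and -0.97 in the pairs of replicates 1, 2 and 3. Summed over the list, levels were 2001, 2044 and 1964 CPM in control and 1164, 1417 and 1213 CPM in ethanol libraries. These sums overlapped nowhere.

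The gene of this list with the largest change among those called was Sp-Sfrp1/5 (L_var_12005, chr6:18188455-18194100, minus strand), a secreted frizzled-related protein that binds Wnt ligands. It had 228, 279 and 191 CPM in control and 34.9, 40.2 and 33.0 CPM in ethanol libraries, a log2 fold change of -2.69 (SE 0.30, adjusted p 0.00137 in edgeR). Sp-Z133 (L_var_06276, chr3:22512299-22513798, minus strand), the zinc finger gene fez, had 22.5, 31.4 and 27.5 CPM against 4.89, 8.07 and 7.48 CPM (-1.998, SE 0.28, adjusted p 0.00351 in edgeR). Both had narrow spreads within each group compared with the distance between groups.

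Sp-Nkx2-1 (L_var_13911, chr7:31111388-31115831, minus strand), a homeobox gene of the apical organ, had 170, 184 and 196 CPM in control and 67.8, 100 and 81.5 CPM in ethanol libraries (log2 fold change -1.15, SE 0.20, adjusted p 0.0239 in edgeR). The LIM-homeobox gene Sp-Lhx2 (L_var_23544, chr15:28484562-28494071, plus strand) had 13.6, 9.54 and 9.02 CPM against 2.78, 1.71 and 2.79 CPM (-2.14, SE 0.39, adjusted p 0.0250 in edgeR). A neighbouring model, Sp-Lhx2_1 (L_var_23543), was at 4.88, 4.60 and 3.81 against 0.222, 0.310 and 0.781 CPM and passed only without the 21 hpf replicate 3 pair (adjusted p 0.000356 in edgeR, and 0.0553 with it). In all 3 genes the groups did not overlap.

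FoxQ2, the forkhead factor at the head of this gene network, has 2 models with log2 fold changes of -0.85 and -0.83, averaging 255 and 253 CPM in control and 140 CPM each in ethanol embryos, and groups that did not overlap. They passed only without the 21 hpf replicate 3 pair (adjusted p 0.0351 in edgeR and 0.0356). The 2 models of Sp-Six3, which acts beside FoxQ2, averaged 14.2 and 10.9 CPM in control and, in ethanol embryos, 18.85 and 14.95 CPM, and did not pass. Nor did the Wnt receptor gene Sp-Fzd5/8 (263, 147 and 229 against 208, 144 and 221 CPM) or Sp-SoxC (486, 543 and 547 against 397, 519 and 424 CPM), a Sox factor of neural precursors.

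The 67 lower genes held further factors with neural roles, which are given here singly and belong to no common list. Sp-Ptf1a (L_var_21376, chr13:29804764-29809296, minus strand), a basic helix-loop-helix factor of neurons and pancreas in vertebrates, had 33.0, 71.7 and 51.6 CPM in control and 2.33, 25.6 and 9.94 CPM in ethanol libraries (log2 fold change -2.21, SE 0.47, adjusted p 0.0499 in edgeR). Sp-Isl, a LIM-homeobox factor of neurons, had 2.18, 4.60 and 2.54 against 0.556, 0.931 and 0.335 CPM (-2.33, SE 0.45, adjusted p 0.0375 in edgeR). Also lower were Sp-Z11, whose closest UniProt entry is Prdm13, with a log2 fold change of -2.44, the tailless homologue Sp-Tll_1 with -1.45 and Sp-Prdm14_1 with -1.37. The list of neuron genes did not lie on the lower side: its median log2 fold change was 0.42, against 0.04 over all models, and 10 of 27 tested members were negative. Sp-Isl alone passed. The fit without the 21 hpf replicate 3 pair had 2 of 28 higher and 2 lower, near the 5.95% and 9.46% of all models. Among the best expressed neuron genes, Sp-ElavL, an RNA-binding protein of differentiating neurons, had 608, 511 and 650 CPM in control and 784, 970 and 626 CPM in ethanol libraries and did not pass.

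**Figure D2:**
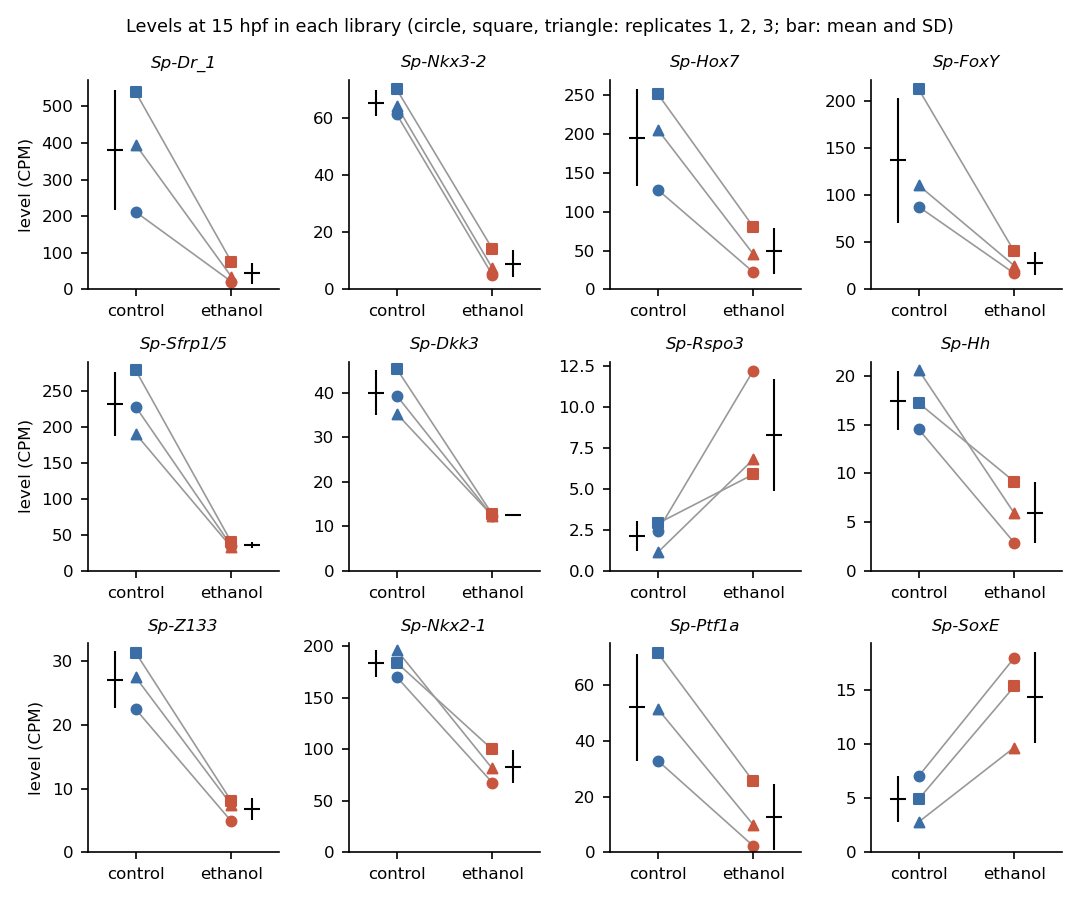
Levels in CPM on linear axes from 0 of 12 genes of ectoderm, signalling and neural roles in the 3 control (blue) and 3 ethanol (red) libraries of 15 hpf; symbols mark replicates 1, 2 and 3, grey lines join libraries of the same number, and black bars give the mean and SD. In 10 of the genes every ethanol library lies below every control library, and in Sp-Rspo3 and Sp-SoxE every ethanol library lies above.

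Secreted regulators of Wnt signalling moved in both directions. Of 35 tested Wnt pathway genes 3 passed, and none of these was a Wnt ligand or a receptor. Of the 3, 1 was higher and 2 lower, against 0.118% and 0.359% of all models. Beside Sp-Sfrp1/5, Sp-Dkk3 (L_var_20538, chr13:4249806-4253733, minus strand), a member of the Dickkopf family, fell from 39.3, 45.3 and 35.2 CPM to 12.3, 12.7 and 12.4 CPM (log2 fold change -1.68, SE 0.21, adjusted p 0.00171 in edgeR). Sp-Rspo3 (L_var_25445, chr17:22183313-22187484, plus strand), an R-spondin, a class of proteins that enhances Wnt signalling, rose from 2.44, 2.90 and 1.13 CPM to 12.2, 5.89 and 6.81 CPM (1.97, SE 0.40, adjusted p 0.0448 in edgeR). The groups of both genes were apart, and the 3 ethanol libraries of Sp-Dkk3 lay close together.

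Leaving out the 21 hpf replicate 3 pair, 6 of 36 Wnt pathway genes were higher and 5 lower, against 5.95% and 9.46% of all models. The ligand Sp-Wnt7 was lower there, with 7.58, 7.84 and 4.65 against 0.334, 2.79 and 2.23 CPM (adjusted p 0.00601 in edgeR, and 0.0620 with the pair). The ligand Sp-Wnt16 was higher, with 31.9, 28.1 and 25.1 against 56.03, 48.1 and 45.1 CPM (adjusted p 0.00730 in edgeR, and 0.174 with the pair). The vegetal ligand Sp-Wnt8 averaged 388 CPM in control embryos and 356 CPM in ethanol ones, with a log2 fold change of -0.13 that passed in neither fit. Beta-catenin, the transducer of the pathway, has 2 models, and the better expressed one stood at 1226, 1033 and 1067 against 954, 1013 and 872 CPM and did not pass.

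Hedgehog, a ligand made by the gut in sea urchins, was lower while its receptor was not called. Sp-Hh (L_var_06155, chr3:18671589-18694947, minus strand) had 14.5, 17.2 and 20.6 CPM in control and 2.89, 9.15 and 5.92 CPM in ethanol libraries (log2 fold change -1.59, SE 0.28, adjusted p 0.0250 in edgeR). The receptor Sp-Ptc had 50.9, 26.9 and 34.4 against 65.0, 23.4 and 49.6 CPM, and the inhibitor Sp-Sufu 29.9, 32.9 and 33.1 against 26.1, 30.4 and 36.2 CPM. Sp-Hh was the only one of the 9 tested hedgehog genes that passed, with or without the 21 hpf replicate 3 pair.

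Of 19 tested endoderm genes 0 passed (edgeR), and without the 21 hpf replicate 3 pair 7 were lower, where 9.46% of all models were, and 0 higher. The median log2 fold change was -0.44. Those lower without the pair included Sp-Hnf1_1, a gut homeobox factor, with 89.2, 140 and 154 against 13.1, 65.3 and 62.7 CPM (adjusted p 0.00732 in edgeR), and both models of Sp-Lox, the ParaHox gene of the midgut and hindgut, with means of 1.385 and 2.03 CPM in control and 0.0889 and 0.349 CPM in ethanol embryos. The gut marker Sp-Endo16 had means of 580 and 690 CPM and did not pass, nor did Sp-FoxA, the forkhead factor of the gut, with 1079, 2463 and 2038 against 513, 1900 and 940 CPM.

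The skeletogenic genes, which build the larval skeleton, had 1 called member at this time. Of 22 tested regulators Sp-Dr_1 alone passed, and of 41 tested biomineralization effectors 0 did. When the 21 hpf replicate 3 pair was left out, 3 regulators were higher and 2 lower, and 5 effectors higher and 3 lower, against 5.95% and 9.46% of all models. Sp-Alx1, the homeobox factor at the top of the skeletogenic programme, had 95.7, 42.4 and 73.3 CPM in control and 180, 124 and 104 CPM in ethanol libraries, which did not overlap, and passed without the pair only (adjusted p 0.0179 in edgeR, and 0.204 with it). The NK homeobox gene Sp-Nk7 had 42.6, 52.1 and 72.9 against 4.56, 22.2 and 6.59 CPM, with edgeR adjusted p-values of 0.00261 without and 0.112 with the pair.

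The best expressed skeletal products were not separated. Sp-Msp130, a surface glycoprotein of skeletogenic cells, had 1535, 1946 and 1906 CPM in control and 1488, 2545 and 952 CPM in ethanol libraries, and the spicule-associated gene Sp-P19 had 948, 2038 and 1924 against 898, 3038 and 870 CPM. For both genes the ethanol libraries ranged on both sides of the control libraries. Of the ectodermal cues that position these cells, Sp-Vegf3, the ligand that attracts them, had 50.6, 31.5 and 45.5 against 94.0, 40.3 and 84.7 CPM, and Sp-Pax2 had 126, 195 and 190 against 34.6, 102 and 89.8 CPM. These 2 passed only without the 21 hpf replicate 3 pair (adjusted p 0.0393 in edgeR and 0.00490), Sp-Vegf3 with overlapping groups.

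Among 58 tested genes of pigment cells and other mesoderm 1 passed, Sp-SoxE (L_var_17157, chr10:7700464-7706520, plus strand), a relative of vertebrate Sox9. It was higher in ethanol embryos, with 7.07, 4.94 and 2.82 CPM in control and 18.0, 15.4 and 9.71 CPM in ethanol libraries (log2 fold change 1.53, SE 0.31, adjusted p 0.0452 in edgeR). In the fit that leaves out the 21 hpf replicate 3 pair 7 of 58 were higher and 5 lower, against 5.95% and 9.46% of all models. The pigment enzyme gene Sp-Pks1, among the most abundant members with 5126, 5113 and 4548 against 4618, 7126 and 3099 CPM, did not pass.

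Single enzymes of folate, sugar and glutathione metabolism held some of the largest differences. Sp-Fpgs_6 (L_var_05970, chr3:11374997-11390611, minus strand), a folylpolyglutamate synthase, an enzyme that keeps folates in the cell, had 47.0, 156 and 59.6 CPM in control and 2.00, 18.8 and 3.01 CPM in ethanol libraries (log2 fold change -3.72, SE 0.68, adjusted p 0.0256 in edgeR). It was the largest decrease of the 89 genes. A second folylpolyglutamate synthase gene, Sp-Fpgs_3 (L_var_07126), had 70.8, 388 and 167.1 against 7.45, 91.7 and 13.1 CPM (-2.77, adjusted p 0.0388 in edgeR), with ethanol replicate 2 above control replicate 1. These were the 2 called members among 46 tested folate and one-carbon genes, where 0.359% of all models were called lower. The fit without the 21 hpf replicate 3 pair had 1 of 47 higher and 5 lower, against 5.95% and 9.46% of all models. Both Fpgs names are shared with other models, one of which, a second Sp-Fpgs_6 (L_var_19993), had 29.6, 136 and 37.1 against 0.556, 27.1 and 2.57 CPM (adjusted p 0.0549 in edgeR).

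Sp-Mgam_3, named after the starch-digesting enzyme maltase-glucoamylase, fell from 3.85, 16.2 and 4.65 to 0.556, 1.86 and 0.558 CPM, whereas Sp-Si2, named after sucrase-isomaltase, rose from 3.21, 5.96 and 3.52 to 9.45, 20.6 and 9.82 CPM. Sp-Chac (L_var_13662, chr7:22844638-22850268, minus strand) resembles CHAC1, a stress-induced enzyme that degrades glutathione in vertebrates. It rose from 4.24, 9.37 and 5.78 CPM to 24.1, 28.5 and 32.8 CPM (log2 fold change 2.21, SE 0.46, adjusted p 0.0459 in edgeR), with all ethanol libraries above all control libraries. It was the only one of 62 tested glutathione and antioxidant genes that passed. The fit without the 21 hpf replicate 3 pair had 3 higher and 4 lower, below the 5.95% and 9.46% of all models. Among the best expressed of the others, Sp-TxnL3, a thioredoxin, had 531, 900 and 784 against 362, 748 and 468 CPM.

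Genes of ethanol oxidation themselves were not called. Of 36 tested alcohol and aldehyde oxidizing enzymes 0 passed (edgeR), with a median log2 fold change of -0.34, and without the 21 hpf replicate 3 pair 1 of 38 was higher and 1 lower, below the share of all models. Sp-Aldh2, the mitochondrial aldehyde dehydrogenase, had 275, 387 and 168 CPM in control and 159, 417 and 79.3 CPM in ethanol libraries, and catalase, Sp-Cat, had 187, 350 and 224 against 129, 295 and 112 CPM. The aldehyde oxidase gene Sp-Aox was the one higher without the pair, with 15.2, 17.4 and 21.4 against 43.2, 27.5 and 54.2 CPM (adjusted p 0.00204 in edgeR), and Sp-Adhfe1, an iron-containing alcohol dehydrogenase, the one lower, with 105, 136 and 132.8 against 52.1, 102 and 53.6 CPM (0.00462).

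Cytochrome P450 genes, whose products oxidize foreign compounds and steroids, had a median log2 fold change of 0.41 over 118 tested, with 0 called by edgeR. Of 119 tested without the 21 hpf replicate 3 pair 12 were higher and 7 lower, against 5.95% and 9.46% of all models. The better expressed Sp-Cyp2L47 had 112, 149 and 75.3 against 201, 324 and 130 CPM (adjusted p 0.00721 in edgeR without and 0.137 with the pair), and the nearly silent Sp-Cyp2L40 had 1.41, 2.73 and 0.564 against 7.45, 25.6 and 7.26 CPM (8.03e-05 and 0.104). In the opposite direction, Sp-Cyp2L42 had 96.0, 257 and 63.2 against 10.6, 86.2 and 6.14 CPM (0.00187 and 0.0776). Among 51 tested retinoid genes 0 passed, and without the pair 3 were higher and 4 lower of 54, near the shares of all models.

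Among the named genes called higher in all 18 libraries, the largest increase was that of Sp-Mlckb. Sp-Mlckb, a myosin light chain kinase, had 2.18, 0.511 and 0.705 CPM in control and 11.4, 8.69 and 5.47 CPM in ethanol libraries (log2 fold change 2.87, SE 0.61, adjusted p 0.0484 in edgeR). Its model overlaps another on the deposited coordinates, as do those of Sp-Tnr, Sp-Bai3L and Sp-C4st, so reads may be shared. Sp-Crhr2L_1, a receptor of the corticotropin-releasing hormone family, had 8.86, 2.21 and 1.69 against 35.9, 15.98 and 6.81 CPM (2.23, SE 0.42, adjusted p 0.0318 in edgeR), with groups that overlapped although each ethanol library lay above its own control.

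Sp-Rpesp was at 3.21, 0.170 and 0.141 CPM in control and 13.01, 3.26 and 3.57 CPM in ethanol libraries (log2 fold change 2.61). The glycoprotein hormone subunit gene Sp-Glyphp3 had 6.42, 4.60 and 1.83 against 29.6, 12.7 and 7.48 CPM (1.91), and the adhesion receptor gene Sp-Bai3L 0.771, 1.53 and 0.564 against 2.67, 3.88 and 4.35 CPM (1.97). Sp-Tnr (1.91), named after the matrix protein tenascin-R, and Sp-Mamdc2 (1.78) also rose, and so did the lectin gene Sp-Clect_106 (2.02) and the ubiquitin ligase gene Sp-Rbck1 (1.64). Sp-Clect_106 was the only called member among 115 tested scavenger receptor cysteine-rich and lectin genes. The fit without the 21 hpf replicate 3 pair had 12 of 124 higher and 4 lower, against 5.95% and 9.46% of all models.

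Among transporters, Sp-Slc43 (L_var_04741), whose closest UniProt entry is an amino acid transporter, rose from 22.5, 40.5 and 25.1 CPM to 61.7, 150 and 109 CPM (log2 fold change 1.84, SE 0.39, adjusted p 0.0459 in edgeR). It was the only called gene of 164 tested monocarboxylate and amino acid transporters, whose median log2 fold change was 0.48. Without the 21 hpf replicate 3 pair 22 of 173 were higher and 3 lower, more than the 5.95% of all models on the higher side. One of them, the monocarboxylate transporter homologue Sp-Slc16a14L_1, had 2.18, 2.38 and 1.83 against 15.3, 23.9 and 13.4 CPM (adjusted p 4.92e-06 in edgeR without and 0.0630 with the pair). The sodium-proton exchanger gene Sp-Slc9a2 fell from 20.6, 20.1 and 18.8 to 9.56, 7.45 and 9.94 CPM. It was the only called gene of 44 tested in acid-base transport. The fit without the pair had 2 of these higher and 3 lower, against 5.95% and 9.46% of all models.

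Of 239 tested sialyl-, galactosyl-, fucosyl- and sulfotransferases, which finish glycans and matrix polysaccharides, 6 passed, all lower, against 0.359% of all models. The sialyltransferase gene Sp-St8sia3_1 had 21, 20 and 13 counts in the control libraries and 3 in each ethanol library. Sp-B3galt6, which builds the linker of proteoglycans, had 8.09, 11.9 and 14.1 against 1.67, 4.34 and 2.12 CPM (log2 fold change -2.08, SE 0.31, adjusted p 0.00737 in edgeR). The fucosyltransferases Sp-Fut_2 (-1.47) and Sp-Fut7_1 (-1.09), the chondroitin sulfotransferase Sp-Chst11_8 (-1.33) and 1 model of Sp-St8sia2_1 (-1.17) fell as well. So did Sp-C4st, a second chondroitin sulfotransferase gene outside the list (-2.06).

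The transferase list had, without the 21 hpf replicate 3 pair, 16 higher and 27 lower of 245, close to the shares of all models. Of 49 tested matrix genes 1 passed, the metalloprotease gene Sp-Mmp21L (-1.17, adjusted p 0.0499 in edgeR). The fit without the pair had 6 of 50 higher and 3 lower, against 5.95% and 9.46% of all models. A second metalloprotease, Sp-Mmp18/19L4, fell from 224, 905 and 634 to 67.3, 326 and 112 CPM, and the hyaluronidase Sp-Hyal1 from 45.9, 41.4 and 40.9 to 12.8, 14.1 and 13.3 CPM. Sp-Sulf1, which removes sulfate from heparan chains outside the cell, rose from 4.88, 3.75 and 3.10 to 9.67, 7.91 and 6.70 CPM.

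Tubulin genes were among the abundant transcripts with lower levels. Called in all 18 libraries were Sp-Btub1 (L_var_22566; 30.4, 255 and 41.7 against 3.11, 53.7 and 5.47 CPM; log2 fold change -2.62), Sp-Btub3 (L_var_03560; 41.6, 80.9 and 63.0 against 9.89, 23.7 and 15.6 CPM; -1.93) and Sp-Atub8 (L_var_09836; -1.56), with edgeR adjusted p-values of 0.0459, 0.0459 and 0.0484. The tubulins were gathered by name after their values had been seen. Of 40 tested, 3 were lower, against 0.359% of all models, and the median log2 fold change was -1.15. The fit without the 21 hpf replicate 3 pair had 21 lower and 3 higher, against 9.46% and 5.95% of all models. The most abundant, a model of Sp-Atub13 (L_var_08070), had 1174, 4864 and 3625 against 260, 2545 and 960 CPM, and 2 models of Sp-Tuba3 went the other way, one (L_var_08050) from 99.2, 81.9 and 113 to 208, 500 and 183 CPM without the pair (adjusted p 0.00953 in edgeR).

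The cilium and axoneme list, of which embryonic cilia are built, had 0 of 68 called. The fit without the 21 hpf replicate 3 pair had 26 of 69 lower and 2 higher, against 9.46% and 5.95% of all models. Sp-Tektin3, a filament protein of the axoneme, had 1063, 925 and 652 against 437, 430 and 263 CPM, with edgeR adjusted p-values of 0.000661 without and 0.0564 with the pair. Of 64 tested cell cycle and replication genes 2 passed, both lower, against 0.359% of all models. Sp-Plk1, a kinase of mitosis, had 170, 174 and 134 against 78.8, 105 and 52.1 CPM (log2 fold change -1.05, adjusted p 0.0459 in edgeR), and Sp-Top2a_1, the topoisomerase that untangles chromosomes, had 71.7, 71.4 and 52.9 against 33.1, 29.2 and 24.7 CPM (-1.17, 0.0256). Without the pair 16 of 64 were lower and 1 higher, against 9.46% and 5.95% of all models.

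Housekeeping lists shifted to the lower side in nearly all members. Of 80 tested cytoplasmic ribosomal protein genes 80 had a negative log2 fold change, as had 56 of 58 oxidative phosphorylation subunits and 33 of 34 proteasome subunits, against 47.2% of all models. Their medians were -0.75, -0.70 and -0.69. In no list did a member pass in all 18 libraries. The fit without the 21 hpf replicate 3 pair had 21, 25 and 19 members lower and 0 higher, against 9.46% and 5.95% of all models.

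These lists differed as much between replicate numbers as between treatments. Summed ribosomal protein levels were 22990, 92670 and 42820 CPM in control replicates 1, 2 and 3 and 14410, 68220 and 19380 CPM in ethanol replicates, so that the ethanol library of replicate 2 lay above the control libraries of replicates 1 and 3. Each ethanol sum was below the control sum of its own number. Proteasome sums followed the same order, at 2780, 6562 and 4560 against 1790, 5050 and 2267 CPM. When libraries were scaled by total counts alone, the median of all tested models was 0.31 in place of 0.04, and relative to it the 3 medians were -0.80, -0.77 and -0.75. At 18 hpf 43 of the 80 ribosomal protein genes, 4 of the 58 oxidative phosphorylation genes and 0 of the 34 proteasome genes passed as lower (edgeR), where 2.61% of all models did, and 0 as higher.

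Heat shock and chaperone genes, a common readout of protein damage, had 0 of 81 called. The fit without the 21 hpf replicate 3 pair had 25 of 82 lower and 4 higher, against 9.46% and 5.95% of all models. The higher side was thus below the share of all models. The lower ones included the chaperonin subunit Sp-Cct5, with 143, 358 and 237 against 56.4, 218 and 86.2 CPM (adjusted p 0.00760 in edgeR). Among the higher ones were both models of Sp-Hsp701D, one (L_var_23111) with 7.32, 3.58 and 3.10 against 26.8, 10.7 and 11.1 CPM (0.00374), and Sp-Xbp1, a factor of the unfolded protein response, with 51.1, 73.8 and 64.0 against 112, 154 and 108 CPM (0.0118). The abundant Sp-Hsp90L passed in neither fit. The median of the list, -0.23, became 0.03 with scaling by total counts alone, and was -0.29 relative to the median of all models under that scaling. Of 17 tested cell death regulators 0 passed (edgeR). The fit without the pair called 1 (5.88%, against 15.4% of all models), the apoptosis inhibitor gene Sp-Birc6. Its means were 16.5 CPM in control embryos and 23.8 CPM in ethanol ones.

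**Figure D3:**
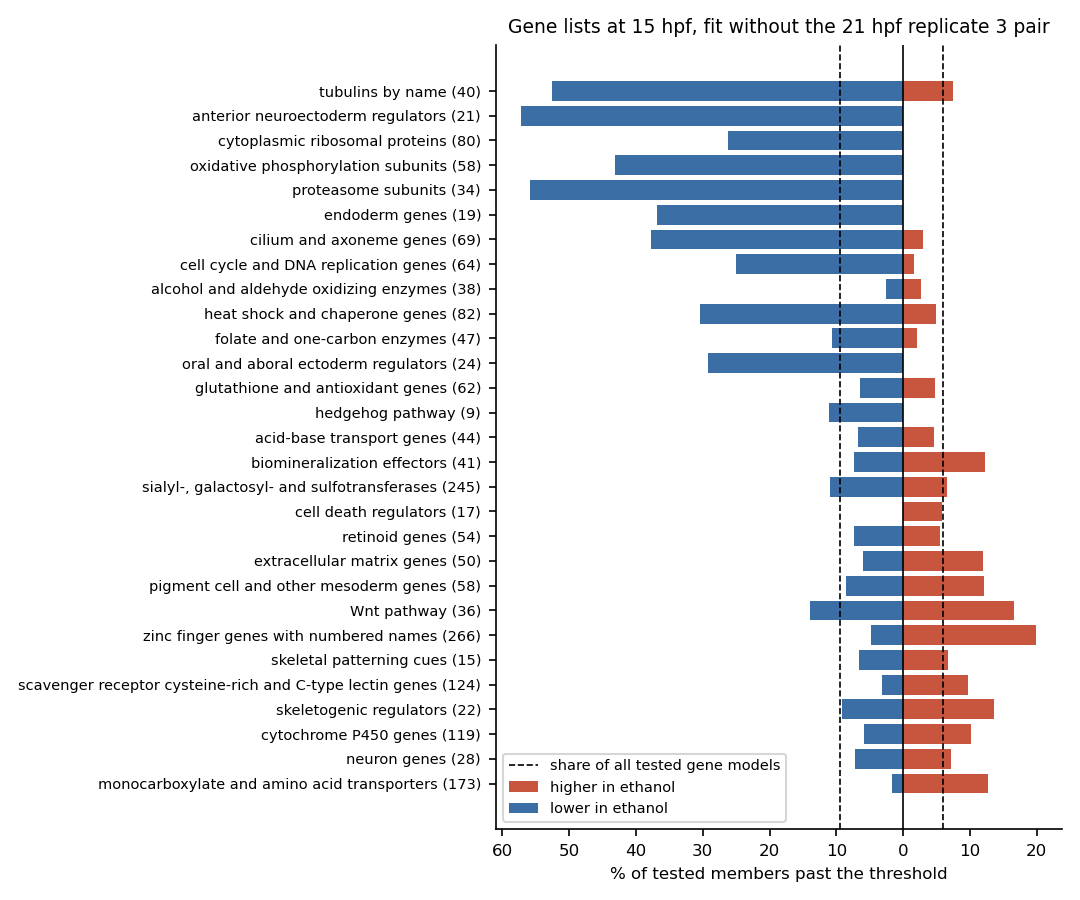
For each gene list, the bar to the right gives the percentage of its tested members called higher and the bar to the left the percentage called lower at 15 hpf (edgeR with the replicate block, adjusted p under 0.05, without the 21 hpf replicate 3 pair); dashed lines mark 5.95% and 9.46%, the shares over all models, the number of members is in brackets, and lists are ordered by median log2 fold change. The early blastula list, with 1 of 5 members higher, is not drawn. Anterior neuroectoderm, proteasome and tubulin lists reach above 50% on the lower side. Among the lists drawn, the numbered zinc finger genes have the longest bar on the higher side.

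Numbered zinc finger genes had 4 of 264 called, all lower: Sp-Z133 and Sp-Z11, described above, and 2 models of Sp-Z147 (log2 fold changes of -2.20 and -1.98). Over all models 0.359% were called lower. The list as a whole lay on the higher side in the same fit, with a median log2 fold change of 0.24. In that fit 25.8% of its members were negative, against 47.2% of all models. The fit without the 21 hpf replicate 3 pair called 53 of 266 higher and 13 lower, against 5.95% and 9.46% of all models. Of the 53 higher ones 38 belonged to 1 family of names. Its 49 models, called Sp-Z313, Sp-Z313L or a numbered copy of these and here the Z313 family, lay on 14 chromosomes, and 30 of them had as closest UniProt entry Asprv1, an aspartic protease of retroviral type, and 1 had POL, a retroelement polyprotein. They were singled out after their values had been seen.

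The models of the Z313 family were close to silent in control embryos. Summed over the 49 models, control replicates 1, 2 and 3 had 81, 44 and 81 counts, and ethanol replicates 1059, 1493 and 1234 counts. In CPM the sums were 10.4, 7.50 and 11.4 in control and 118, 232 and 138 in ethanol libraries, that is 11.3, 30.9 and 12.1 times higher in the ethanol library of each pair. At least 10 counts were found for 0, 0 and 2 of the 49 models in the control and for 36, 40 and 39 in the ethanol libraries.

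Of 41 tested models of the family 39 were higher in each of the 3 pairs and in 37 the groups did not overlap (14.2% of all models). These models passed the filter on low counts mainly through libraries labelled ethanol, and the family was chosen on its values. The 2 counts were thus largely set by that choice and give no independent support. The calls and the median given next rest on the same choice and give none either. None of the 41 models was called in all 18 libraries by edgeR, where the smallest adjusted p was 0.0502 and 39 had an unadjusted p under 0.05. DESeq2 called 16 and limma-voom 2 of them, all higher. With no filter on low counts edgeR called 7 of 49, all higher. Without the 21 hpf replicate 3 pair edgeR called 38, all higher, with a median log2 fold change of 4.06. Sp-Z313_4 (L_var_15461, chr8:33423655-33426849, plus strand) had 0, 1 and 0 counts in control and 36, 32 and 61 counts in ethanol libraries (adjusted p 6.99e-05 in edgeR without and 0.0564 with the pair). Sp-Z313L (L_var_07875, chr4:3419167-3422322, plus strand) had 0 counts in each control library and 16, 25 and 15 in the ethanol libraries, at least 16.9-fold higher when the control group is set to a floor of 3 counts in all. The copies resemble each other, and how reads that match several of them were counted is not given in the sources used here, so the level of a single copy is less certain than the sum.

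The same sums separated the libraries at the later times. At 18 hpf the sums were 7.33, 14.5 and 4.42 CPM in control and 84.7, 199 and 107 CPM in ethanol libraries. At 21 hpf they were 5.24 and 6.35 CPM in control and 62.2 and 222 CPM in ethanol libraries of replicates 1 and 2. In replicate 3 of 21 hpf the library labelled control had 94.4 CPM and the library labelled ethanol 4.44 CPM. In 8 of 9 pairs the ethanol library was at least 11-fold higher, and in the remaining pair the library labelled control was 21.3-fold higher.

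**Figure D4:**
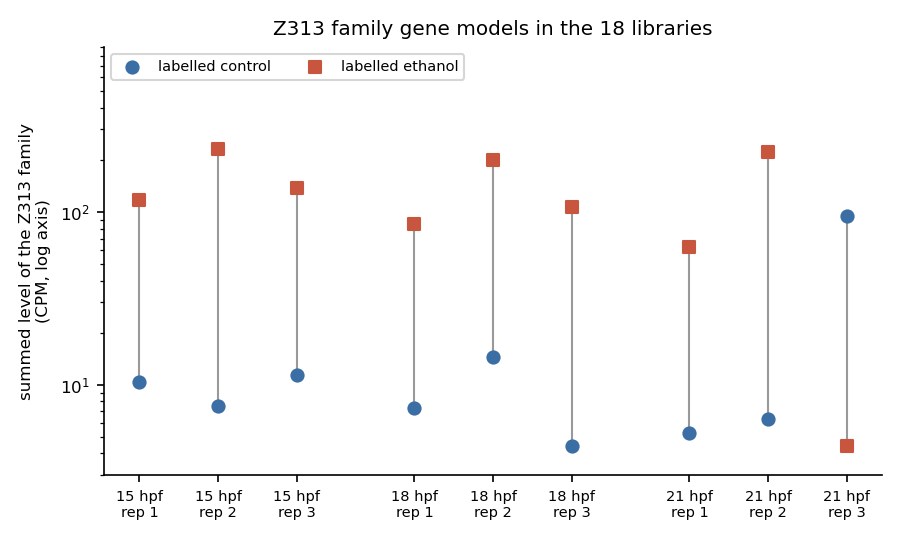
Summed level of the 49 gene models of the Z313 family in CPM, on a log axis, in each of the 18 libraries; blue circles are libraries labelled control, red squares libraries labelled ethanol, and grey lines join libraries of the same time and replicate number. Ethanol libraries of 15 hpf lie at 118 to 232 CPM and control libraries at 7.50 to 11.4 CPM, and the order is turned around in the replicate 3 pair of 21 hpf.

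A wider search, also made after values had been seen, took models with at most 3 counts in each control and at least 10 in each ethanol library. It found 30, of which 25 were of the Z313 family. The reverse search found 2 models, Sp-St8sia3_1 and the paired-box gene Sp-PaxC, the latter with 14, 22 and 14 counts in control and 2, 3 and 2 counts in ethanol libraries (adjusted p 0.120 in edgeR, and 0.00518 without the 21 hpf replicate 3 pair).

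The 89 genes were also followed at the later times. The later libraries had a part in choosing them, through the spread of each gene and the shared replicate numbers. Leaving out the 21 hpf replicate 3 pair alone moved the number called from 89 to 2943. The later values are therefore no independent check, and how far the choice shaped them was not tested. At 18 hpf 86, 83 and 87 of the 89 kept their direction in the pairs of replicates 1, 2 and 3. The median log2 ratio of the lower genes was -1.21, -1.02 and -1.28 in these pairs, against -1.86, -1.65 and -1.78 at 15 hpf, and that of the higher genes 0.84, 0.87 and 1.20 against 1.59, 1.55 and 1.71. At 21 hpf 68 and 69 kept it in replicates 1 and 2 and 15 in replicate 3. At 18 hpf 43 of the 67 lower and 8 of the 22 higher genes passed the test of that time, which called 4.07% of all models, 2.61% lower and 1.46% higher. That test came from the same fit and used the same spread of each gene.

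**Figure D5:**
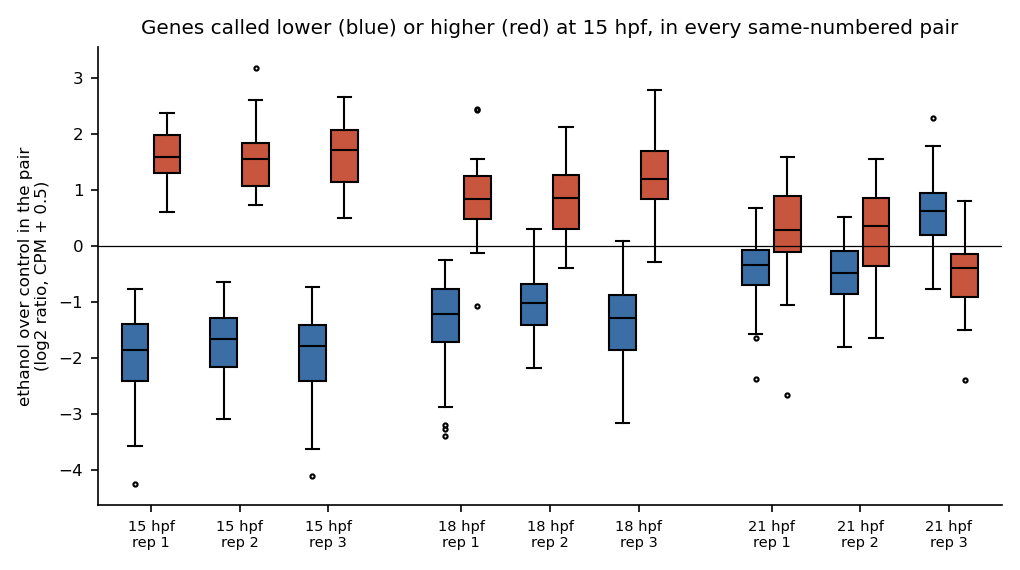
Log2 ratios of ethanol over control (CPM plus 0.5) in each of the 9 same-numbered pairs, as box plots over the 67 genes called lower (blue) and the 22 called higher (red) at 15 hpf; boxes span the quartiles with the median as a line, whiskers reach 1.5 times the box height and circles are genes beyond. The boxes stand apart at 15 hpf, where the genes were chosen, lie nearer to 0 at 18 and 21 hpf, and change places in replicate 3 of 21 hpf. The later libraries also entered the choice, through the spread of each gene.

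Whether the effect of ethanol at 15 hpf differed from that at 18 hpf was tested as the difference of the 2 contrasts. None of the 18674 models passed (edgeR, 420 with an unadjusted p under 0.05, smallest adjusted p 1.0), and 3 models did without the 21 hpf replicate 3 pair (0.0157%). The smallest unadjusted p belonged to Sp-SoxE, which was higher in ethanol embryos at 15 hpf, as given above. At 18 hpf it had 14.4, 13.99 and 10.4 CPM in control and 6.63, 13.96 and 8.46 CPM in ethanol libraries, and the difference between times was 1.96 on the log2 scale. The next 3 were 2 neighbouring models of Sp-Hypp_1556 (2.20 and 3.18) and Sp-Arsj, a sulfatase (2.56), all 3 with control levels that were higher at 18 than at 15 hpf. For Sp-Hh the log2 fold change was -1.59 at 15 hpf and -0.14 at 18 hpf, and for Sp-Nkx2-1 -1.15 and -0.32.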

How the data were processed

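Total RNA of whole embryos was sequenced. The deposited table holds read counts per gene model, not normalized, with 1 column per sample. Per the submitters' processing notes the tools were fastp, STAR and featureCounts, and their settings, strand use and the genome build are not given in the sources used here. The authors also deposited an annotation with names, coordinates and the percent identity of the best hit. Replicates 1 to 3 correspond to the letters of the sample sheet, in that order, which is an assumption.

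Counts were fitted in R 4.3.3 with edgeR 4.0.16 (TMM, filterByExpr at a count of 10 and a total of 15, quasi-likelihood test, Benjamini-Hochberg threshold 0.05) over 18 libraries with 6 group means and the replicate number as a block. Tests were two-sided. SE is the log2 fold change divided by the square root of F. CPM are relative to TMM-scaled library sizes. Ratios of pairs use CPM plus 0.5. The steps were tested on simulated data.

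The block rests on the sample sheet and, within 15 hpf only, on the data. Deviations from group means correlated at 0.742, 0.715 and 0.600 between same-numbered libraries of 15 hpf and at -0.049 to -0.566 between others. Deviations within a group sum to 0 for each gene, so the negative values follow on balance from the positive ones. The main fit shares the block over all times. Whether same-numbered libraries also match between times was not tested, so these correlations do not support that part of the block. The smallest chi-square per degree of freedom of 15 library pairs was 20.9, so no library repeats another.

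Members and gene lists were chosen with earlier results of these data known. Named are the 12 largest decreases and 12 largest increases among called, named genes that average 0 or more in log2 CPM and have 1 direction in 3 pairs, list genes called, and the best expressed list members not called. Genes named for the fit without the 21 hpf replicate 3 pair (up to 3 per list and direction) and genes named beyond these were chosen after values were seen. Alternatives were no block, DESeq2 1.42.0, limma-voom 3.58.1, other scalings, no filter, fewer libraries and each replicate left out. Of the 29 lists, the early blastula list had 0 of 5 called, and 1 higher without that pair.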

Additional observations from a re-analysis of the deposited data

Results flagged for a closer look

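Without the 21 hpf replicate 3 pair, the effect of ethanol at 15 hpf differed from that at 18 hpf in 3 genes (0.0157% of 19101 tested), by an edgeR test of the difference itself. With the pair all 3 had an adjusted p of 1.0. Sp-FbsL_2 (L_var_04883), annotated as fibrosurfin-like, had 1.54, 8.69 and 1.55 CPM in control and 3.78, 3.10 and 1.00 CPM in ethanol libraries at 15 hpf, and 57.5, 67.4 and 31.8 against 0.343, 3.35 and 0.846 CPM at 18 hpf. The effect at 15 hpf minus that at 18 hpf was 4.93 on the log2 scale (edgeR adjusted p 0.0195). Sp-Rej9 (L_var_13796), named after the sperm receptor for egg jelly, had 3.73, 4.60 and 2.40 against 4.56, 4.81 and 3.57 CPM at 15 hpf and 36.9, 44.6 and 43.4 against 4.34, 3.76 and 5.71 CPM at 18 hpf, a difference of 3.43 (0.000874). For Sp-SatL2 (L_var_26973) the values were 6.04, 7.84 and 7.05 against 7.89, 4.65 and 4.80 CPM and 27.5, 20.5 and 28.3 against 5.49, 4.29 and 4.44 CPM, a difference of 2.15 (0.0195). In all 3 genes the groups overlapped at 15 hpf, and at 18 hpf every control library lay above every ethanol library.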

How the results depend on the processing

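Each setting is given as genes called at 15 hpf, with higher and lower in brackets. Against 89 (22, 67), the paired analysis turned to 11 (0, 11) with no replicate block, DESeq2 gave 1079 (366, 713) and no filter 171 (41, 130). Limma-voom gave 105 (26, 79) and RLE scaling 89 (22, 67). Scaling by total counts alone, added after the data were seen, gave 126 (62, 64), so the balance of directions depended on the scaling. Fewer libraries gave 3905 (1785, 2120) in the 6 of 15 hpf, 3746 (1476, 2270) in the 12 of 15 and 18 hpf, and 2943 (1137, 1806) without the 21 hpf replicate 3 pair; each of these 3 kept all 89 genes. Leaving out a replicate gave 0 to 334 genes (0 to 181, 0 to 153): replicate 1 left 0 (edgeR, 2791 with an unadjusted p under 0.05), replicate 2 left 20 and replicate 3 gave 334. With no block these ranged from 0 to 2 (0 higher, 0 to 2 lower). In the 12 libraries, added after the data were seen, they were 2799 (1315, 1484), 2594 (947, 1647) and 395 (200, 195) without replicates 1, 2 and 3. The 45 named genes were recomputed in 12 of these settings, without the leave-outs that have no block or 12 libraries, and none changed direction there. Called were still 0 of them without replicate 1, 8 without replicate 2, 39 without replicate 3 and 8 with no replicate block. Genes differing between 15 and 18 hpf numbered 0 in all but the 12 libraries (2), without the 21 hpf replicate 3 pair (3) and without replicate 3 (1). The cause of these shifts was not tested.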
